A study of Mus musculus with 2 samples.

Results

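A set of 10 genes of ureter peristalsis was followed across the deposited arrays of cultured mouse ureters. They are Hcn3, Kit, Ano1, Cacna1c, Kcnma1, Kcnmb1, Pln, Chrm2, Chrm3 and Gja1, and every gene spot that carries one of these names in the scanner files was taken. They make up 10 of 29924 gene names and 14 of 39429 probes. The RNA came from ureters labelled Fgfr1/2cDKO, which carried Tbx18(cre/+) together with homozygous floxed alleles of both receptors, Fgfr1(fl/fl) and Fgfr2(fl/fl). It was set against control ureters, Fgfr1(fl/?) and Fgfr2(fl/?), whose second allele the labels leave as a question mark. All were on the NMRI strain, were dissected from embryos at E15.5 and were kept for 6 days on transwell membranes. No Cre allele is listed for the controls. Cre at the Tbx18 locus acts in the mesenchyme around the ureteric epithelium, from which the smooth muscle and the connective tissue layers form, so the epithelium keeps its receptor alleles. An effect of the Cre allele itself cannot be told apart from the loss of the receptors. Each of 2 arrays was hybridised with 1 Fgfr1/2cDKO and 1 control RNA. On array 1, whose samples are labelled male, the Fgfr1/2cDKO RNA carried Cy5, and on array 2, labelled female, it carried Cy3. A difference between the arrays may thus be one of replicate, sex or dye, which cannot be told apart. Embryos per RNA and litters are not stated in the labels, and a p-value here reflects the spread of these samples alone, which could be technical.

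The ureter moves urine by waves of contraction that start in pacemaker cells near the renal pelvis and pass along a coupled sheet of smooth muscle. In mice, the hyperpolarisation-activated cation channel HCN3 marks the pacemaker region of the pelvis, and antibodies against the receptor tyrosine kinase KIT disturb the contractions of ureters in culture. Depolarisation opens L-type calcium channels, whose pore is made by Cacna1c, and the calcium that enters drives contraction. Chloride leaving through the calcium-activated channel ANO1 adds to the depolarisation. Potassium leaving through the large-conductance calcium-activated channel of Kcnma1 and Kcnmb1 ends it. Phospholamban, the product of Pln, restrains the pump that returns calcium to its store, muscarinic receptors let nerves tune the rhythm, and gap junctions such as those of Gja1 carry it from cell to cell.

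Read at the brightest probe of each gene, Ano1 and Kcnma1 were the only 2 of the 10 with a ratio above 0 on both arrays. Their sequences are shown for that reason. The array reads a transcript through probes of 60 bases. The stretches below are the first 30 bases of the single Ano1 probe (mm9, chr7:151774604-151774663, minus strand) and of the 4 Kcnma1 probes, which lie on the minus strand of mm9 chromosome 14 and span 19268 bases. Kcnma1 probe 1, at chr14:24111708-24111767, was the brightest and stands for the gene in the counts. Probes 2, 3 and 4 lie at chr14:24126279-24126338, chr14:24118701-24118760 and chr14:24130916-24130975. Where these positions fall among exons and untranslated regions was not looked up, for want of an annotation of that build.
Ano1 probe: cttgtgcagtgatgtggtttccaatgatgt
Kcnma1 probe 1: agagcgtggtttgtttctttgtctttcaca
Kcnma1 probe 2: tgggtgggcagtcaatgtatacatgtaaat
Kcnma1 probe 3: agattccttgatgcacatttctcttctttc
Kcnma1 probe 4: tggtgatctgttctgcaaagctctgaaaac

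The promoters of the same 2 genes, from 250 bases before to 50 bases after the annotated start, are printed from RefSeq (GRCm38.p6). They lie at chr7:144738524-144738823 for Ano1 and chr14:24004156-24004455 for Kcnma1, both on the minus strand. Capitals mark GC boxes, GGGCGG on either strand, of which the first pair in Kcnma1 overlaps.
Ano1 promoter: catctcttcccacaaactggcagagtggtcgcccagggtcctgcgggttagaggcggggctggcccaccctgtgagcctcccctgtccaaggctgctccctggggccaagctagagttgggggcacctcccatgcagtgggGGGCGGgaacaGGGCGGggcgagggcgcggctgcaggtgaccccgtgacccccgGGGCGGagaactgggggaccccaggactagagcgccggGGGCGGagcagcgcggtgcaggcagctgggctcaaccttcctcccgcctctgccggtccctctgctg
Kcnma1 promoter: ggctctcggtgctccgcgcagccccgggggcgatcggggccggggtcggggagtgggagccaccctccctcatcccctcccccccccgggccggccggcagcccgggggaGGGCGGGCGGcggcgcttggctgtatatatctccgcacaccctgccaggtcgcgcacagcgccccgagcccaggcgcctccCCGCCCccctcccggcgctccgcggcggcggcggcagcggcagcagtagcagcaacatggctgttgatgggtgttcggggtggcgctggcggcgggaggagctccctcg
The Ano1 window holds 4 GC boxes and the Kcnma1 window 3. They are not particular to these 2 genes, since 1 of the Cacna1c windows holds 6. Each Kit window and the Chrm2 window hold 1. The other Cacna1c windows and those of Pln, Gja1, Kcnmb1 and Chrm3 hold none. Of the 32851 promoters of the same length, 35.66% hold at least 1. Promoters were found for 9 of the 10 genes, 12 windows in all, and none of the 12 holds the CArG box, the motif of serum response factor at many smooth muscle genes. That motif stands in 1.629% of all promoters on either strand. The GLI motif TGGGTGGTC and the EGR motif GCGTGGGCG were likewise in none of the 12, against 0.2527% and 0.6119% of all promoters. The letters TATAAA, found in 13.62% of all promoters, were in the window of Pln, where they begin 219 bases before the annotated start. These are matches of letters within short windows and not measured binding.

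Of the 10 genes, 8 were bright enough to be tested, and Pln and Chrm2 were not. Ratios are log2 of Fgfr1/2cDKO over control within each array, so that a value above 0 is higher in Fgfr1/2cDKO. Over all 22070 genes tested, 836 passed an adjusted p of 0.05 in limma's moderated test with Benjamini-Hochberg adjustment, which is 3.79%, with 1.76% higher and 2.03% lower. Of the 8 genes, 1 passed higher (Ano1) and 0 passed lower, and 2 had an unadjusted p under 0.05, as did 22.5% of all genes. The median ratio of the 8 was -0.07, beside -0.02 for all genes. A ratio had the same sign on both arrays for 6 of the 8 and for 66.5% of all genes. The signals of the 2 genotypes did not overlap for 5 of the 8, 2 with Fgfr1/2cDKO higher and 3 with it lower. Over all genes 45.1% did not overlap, 21.5% higher and 23.5% lower. A share of 1 in 8 and a share of 5 in 8 are counts of few genes and were not tested against these backgrounds.

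**Figure D1:**
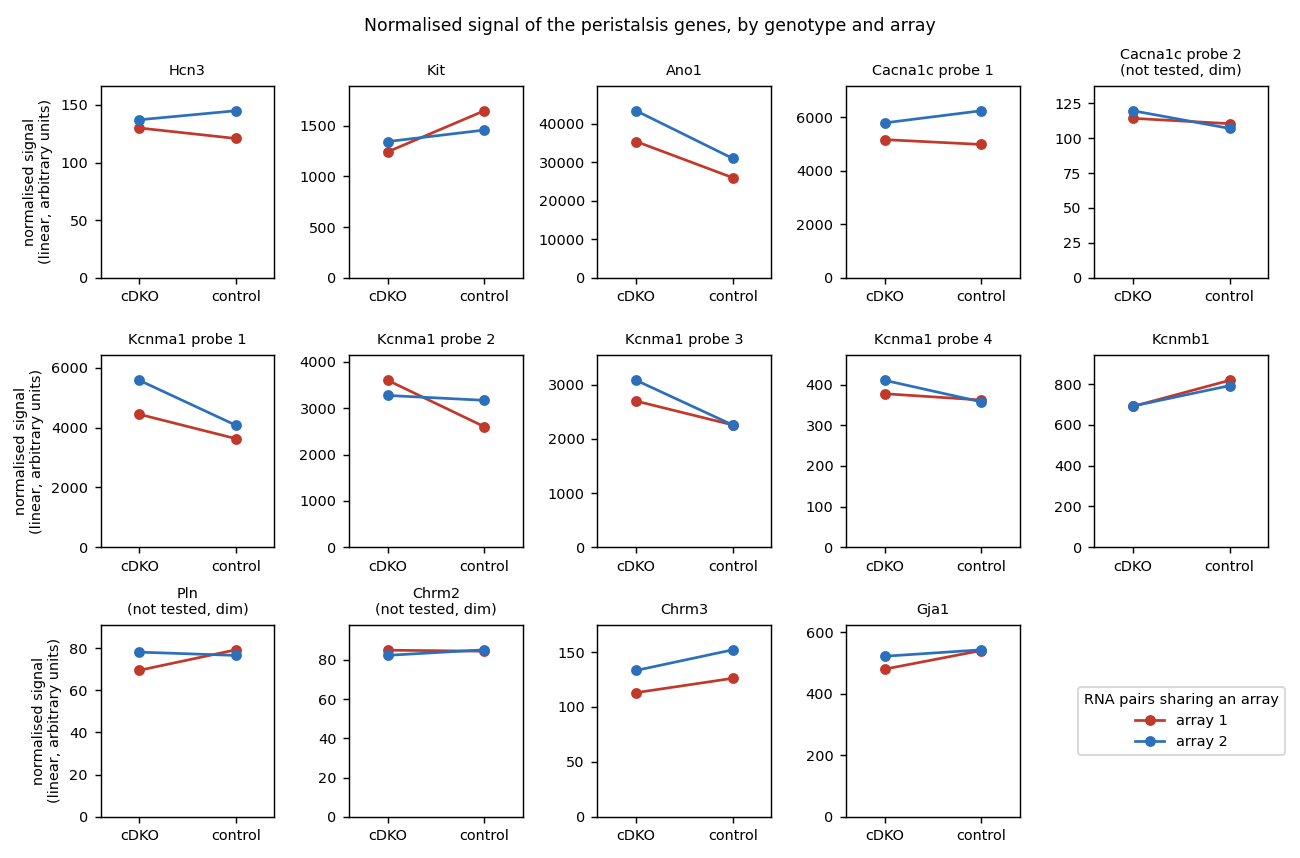
Normalised signal (vertical axis, linear, from 0) of the 14 probes of the 10 peristalsis genes in Fgfr1/2cDKO (left) and control (right) RNA, 1 line for each array. Ano1, the 4 Kcnma1 probes and the dim, untested Cacna1c probe 2 slope down from Fgfr1/2cDKO to control on both arrays. The Kit, Kcnmb1, Chrm3 and Gja1 lines slope up, and Pln and Chrm2 lie near the floor.

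Among the pacemaker genes, Ano1 had normalised signals of 35389 and 43383 in the Fgfr1/2cDKO RNAs, against 25985 and 30988 in the control RNAs (arrays 1 and 2). Both Fgfr1/2cDKO signals lay above both control signals. The ratio was 0.45 on array 1 and 0.49 on array 2, a mean of 0.47 ± 0.03 (SD, n = 2), or 1.38-fold higher. Ano1 rose by limma's test with an adjusted p of 0.0499 (95% interval 0.23 to 0.70), which ranks it 829 by p among the 836 genes that passed. Before normalisation the mean spot signals were 31175 and 27682 in Fgfr1/2cDKO and 29467 and 47183 in control. The sign of the raw comparison thus differed between the arrays. On array 2, where the control RNA carried Cy5, the raw control signal was the higher one at every probe of the peristalsis genes. With each array centred on its median in place of the loess curve, the Ano1 ratio was 0.42 on array 1 and -0.10 on array 2, and its mean of 0.16 did not pass (adjusted p = 0.539). That scaling moves the median of all genes to -0.14, and relative to it Ano1 stood at 0.31. In the authors' deposited table the signed folds of Ano1 were 1.43 and 1.35.

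ANO1 is also made by epithelial cells, and marker genes of other cell types were read beside it. Of 12 urothelium markers, 6 passed higher and none lower, with a median of 0.50 and a range from -0.46 to 0.97. On both arrays 9 of them were above 0 and 1 was below, and 2 had opposite signs. Their summed signal was 412253 and 492303 in Fgfr1/2cDKO against 289731 and 307719 in control. Upk1a, a plaque protein of the urothelial surface, was at 0.97 ± 0.15 (SD, n = 2; limma adjusted p = 0.0116). Of 5 kidney tubule markers tested, 3 passed higher and the other 2 were below 0 on both arrays. The summed signal of the 5 was 3018 and 1160 in Fgfr1/2cDKO against 733 and 726 in control. Their strongest, the kidney cadherin Cdh16, gave 2211 and 597 of that sum against 205 and 220. Its ratio was 2.43 ± 1.41 (SD, n = 2; limma adjusted p = 0.0194). Slc12a1, Slc12a3 and Lrp2 were not well above background. The part of these cells in the Ano1 result was not tested. In RNA of whole ureters, more cells of a type and more RNA per cell cannot be told apart, and the same holds for fewer and less.

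Kit, the receptor tyrosine kinase of interstitial pacemaker-like cells and also of mast cells and melanocytes, had signals of 1243 and 1344 in Fgfr1/2cDKO against 1649 and 1458 in control. Both Fgfr1/2cDKO signals were the lower ones. The ratio was -0.41 and -0.12, a mean of -0.26 ± 0.21 (SD, n = 2), and it did not pass (limma adjusted p = 0.226, 95% interval -0.53 to 0.0023). In the authors' deposited table the signed folds of Kit were -1.33 and -1.08, the same signs. Under median centring the mean ratio of Kit was -0.45, or -0.31 relative to all genes, and did not pass either (adjusted p = 0.14). Of 4 mast cell markers tested, 2 passed lower and 1 was above 0 on both arrays, with a range from -0.76 to 0.44. Their summed signal was 1822 and 1704 in Fgfr1/2cDKO against 1942 and 1937 in control, and Cma1, Tpsab1, Fcer1a and Ms4a2 were not well above background. The mast cell carboxypeptidase Cpa3 was at least 1.59-fold lower (adjusted p = 0.0228), being not well above background in Fgfr1/2cDKO on either array. Cpa3 entered the test through its control signal alone, so its p and its place among the 2 that passed lower are no support for a fall. Its ratio ran from -2.11 to -0.67 over the 3 other scalings. Of 4 melanocyte markers tested none passed and 1 had an unadjusted p under 0.05, and the strongest was Tyrp1 at 0.44 ± 0.18 (adjusted p = 0.0697). Their summed signal was 777 and 724 in Fgfr1/2cDKO against 759 and 728 in control, with Dct not well above background. The part of either cell type in the Kit values was not tested.

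Hcn3 was dim, with signals of 130 and 137 in Fgfr1/2cDKO against 121 and 145 in control. The groups overlapped, and the ratio was 0.10 on array 1 and -0.08 on array 2, a mean of 0.01 ± 0.13 (limma adjusted p = 0.962). The 95% interval of the moderated fit, -0.24 to 0.26, rests mostly on the variance of all genes (7.45 prior and 1 residual degrees of freedom). At so dim a signal it does not bound the change in Hcn3 RNA. The signed folds of Hcn3 in the authors' deposited table, 1.37 and -1.07, went opposite ways as well.

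The calcium channel gene Cacna1c had signals of 5164 and 5789 in Fgfr1/2cDKO against 4983 and 6243 in control at its brighter probe (mm9, chr6:118537316-118537375). The groups overlapped. The ratio was 0.05 and -0.11, a mean of -0.03 ± 0.11 (SD, n = 2; limma adjusted p = 0.905, 95% interval -0.28 to 0.22). A second probe, 6763 bases away, gave 114 and 120 in Fgfr1/2cDKO against 110 and 106.9 in control and was too dim to be tested. Its Fgfr1/2cDKO signal was the higher one on each array. The authors' deposited table gives Cacna1c signed folds of 1.05 and -1.10 at the brighter probe and 1.10 and 1.52 at the second.

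The potassium channel subunits took opposite signs. Kcnma1, the pore of the large-conductance channel, had signals of 4442 and 5578 in Fgfr1/2cDKO against 3627 and 4076 in control at probe 1. The Fgfr1/2cDKO value was the higher one on each array, and the groups did not overlap. The ratio was 0.29 and 0.45, a mean of 0.37 ± 0.11 (SD, n = 2), and it did not pass (limma adjusted p = 0.0955, 95% interval 0.13 to 0.62). The authors' deposited table gives this probe of Kcnma1 signed folds of 1.25 and 1.35. Under median centring the Kcnma1 ratio was 0.12 and 0.22, a mean of 0.17, or 0.31 relative to all genes. The other probes test the same gene at other places and are not further replicates. Probe 2 gave 0.47 and 0.05, probe 3 gave 0.26 and 0.45, and probe 4 gave 0.06 and 0.20. All 4 probes stood above 0 on both arrays, and none passed in the fit over all probes (adjusted p from 0.0784 to 0.510), in which 5.09% of 28915 probes passed and 2.52% passed higher.

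Kcnmb1 encodes the accessory subunit that raises the calcium sensitivity of this channel in smooth muscle. Its signals were 691 and 693 in Fgfr1/2cDKO against 819 and 793 in control. Both control signals were the higher ones, yet the ratio of -0.25 and -0.19, a mean of -0.22 ± 0.04 (SD, n = 2), did not pass (limma adjusted p = 0.257, 95% interval -0.46 to 0.02). The authors' deposited table gives Kcnmb1 signed folds of -1.19 and -1.17.

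Pln, which inhibits the calcium pump of the sarcoplasmic reticulum, was not well above background in any of the 4 spots of either genotype on either array. Its normalised signals were 69.5 and 78.1 in Fgfr1/2cDKO against 79.2 and 76.5 in control, and the groups overlapped. Chrm2, the muscarinic receptor that couples to inhibitory G proteins, was in the same position. Its signals were 85.0 and 82.3 in Fgfr1/2cDKO against 84.5 and 85.2 in control. No ratio is given for Pln or Chrm2, since at this signal a difference was not detectable.

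Chrm3, the muscarinic receptor that couples to phospholipase C and calcium release, had signals of 113 and 133 in Fgfr1/2cDKO against 126 and 152 in control. Within each array the Fgfr1/2cDKO signal was the lower one, and across arrays the groups overlapped. In Fgfr1/2cDKO RNA it was well above background in 1 of 4 spots on array 1 and in all 4 spots on array 2. Chrm3 thus entered the test through its control signal alone. Its p, its interval and its place among the genes with the same sign on both arrays are therefore no support for a fall. The ratio was -0.16 and -0.19, a mean of -0.17 ± 0.02 (SD, n = 2; limma adjusted p = 0.363, 95% interval -0.41 to 0.07). In the authors' deposited table the signed folds of Chrm3 were -1.44 and -1.30, a mean ratio of -0.45. With the scanner software's processed signals the mean ratio was -0.46, and both of these means lie outside that interval. A smaller background offset of 10 gave -0.26, so the size at this dim probe depends on the processing. None of these passed. Under median centring the Chrm3 ratio was -0.08, which lies 0.06 above the median of all genes, so its sign relative to all genes flips with the scaling.

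Gja1, the main gap junction protein of many smooth muscles, had signals of 480 and 522 in Fgfr1/2cDKO against 541 and 543 in control. The groups did not overlap, with a narrow gap. The ratio was -0.17 and -0.06, a mean of -0.11 ± 0.08 (SD, n = 2; limma adjusted p = 0.563, 95% interval -0.36 to 0.13). In the authors' deposited table Gja1 had signed folds of -1.13 and 1.03, which go opposite ways.

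**Figure D2:**
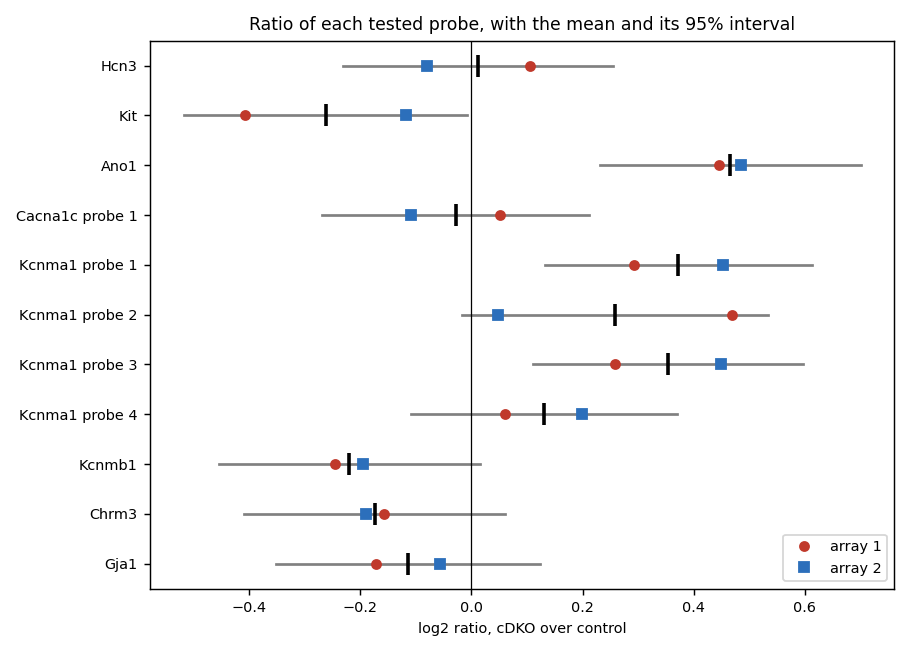
Log2 ratio of Fgfr1/2cDKO over control (horizontal axis) for the 11 tested probes, with array 1 as circles, array 2 as squares, the mean as a black tick and its unadjusted 95% interval from limma's fit over all probes as a grey line. Ano1 and the 4 Kcnma1 probes lie right of 0 on both arrays, and Kit, Kcnmb1, Chrm3 and Gja1 lie left of it.

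Other genes of the same machinery were read in 9 lists with 124 genes, of which 106 were tested, 5 passed higher and 7 lower. The 12 are 11.3% of the genes tested, beside 3.79% of all genes, but the lists were drawn up with results of these arrays known. All 12 kept their sign under median centring, the scanner software's processed signals and the authors' deposited values, and 0, 0 and 3 of them passed there. Of the 9 lists, 7 held a gene that passed, and 2 held none.

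Of 9 other pacemaker and inward cation channels tested, none passed in either direction in limma's test and 3 had an unadjusted p under 0.05, with a median of 0.02. The calcium-activated cation channel Trpm4 had 0.36 ± 0.02 (SD, n = 2; limma adjusted p = 0.0956). Hcn2, a relative of Hcn3, had -0.27 ± 0.04 (adjusted p = 0.179), and the receptor-operated channel Trpc6 had -0.30 ± 0.21 (adjusted p = 0.181). Hcn4 was not well above background.

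Of 11 voltage-gated calcium channel subunits tested, 1 passed higher, with a median of -0.12. It was Cacna1g, the pore of a T-type channel that opens at low voltage, with signals of 2386 and 2731 in Fgfr1/2cDKO against 1528 and 1940 in control. The groups did not overlap, and the ratio was 0.57 ± 0.11 (SD, n = 2; limma adjusted p = 0.0324), with 0.24 at a second probe. The accessory subunits Cacnb4 (-0.53 ± 0.29, adjusted p = 0.0579) and Cacna2d3 (-0.38 ± 0.03, adjusted p = 0.0824) did not pass.

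Of 16 potassium channel genes tested, 1 passed higher and 1 lower, with a median of 0.18. Kcnmb4, the accessory subunit of the large-conductance channel best known from neurons, had signals of 773 and 1070 in Fgfr1/2cDKO against 451 and 666 in control. That is a ratio of 0.73 ± 0.07 (SD, n = 2; limma adjusted p = 0.0188), with 0.21 at a second probe. Kcnmb4 and Kcnmb1, which both bind the Kcnma1 pore, thus had ratios of opposite sign, and the difference between them was not tested. Abcc9, the regulatory subunit of the ATP-sensitive channel, fell to 2044 and 2251 in Fgfr1/2cDKO against 3047 and 3045 in control (-0.51 ± 0.10, adjusted p = 0.0437). The channel Kcnd2 had 0.45 ± 0.28 (adjusted p = 0.0836). Of 6 mural cell markers 1 passed lower, Mcam at -0.52 ± 0.21 (adjusted p = 0.0499), with a summed signal of 46171 and 37388 in Fgfr1/2cDKO against 53760 and 43299 in control. The median of the mural list was -0.04, and 3 of the 6 had opposite signs on the 2 arrays. Without Mcam the sum was 26576 and 21279 in Fgfr1/2cDKO against 22787 and 22477 in control, so the lower sum on both arrays rests on Mcam. Mural cells make much Abcc9, and their part in its value was not tested.

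Among 5 genes tested beside Ano1 in the anoctamin and chloride list, 1 passed higher, with a median of -0.10. It was Ano6, a scramblase and channel of the same family, with signals of 1134 and 1264 in Fgfr1/2cDKO against 821 and 827 in control. Its ratio was 0.54 ± 0.10 (SD, n = 2; limma adjusted p = 0.0378). Ano10 was at -0.13 ± 0.02 (adjusted p = 0.498), and the chloride importer Slc12a2 at -0.12 ± 0.12 (adjusted p = 0.557). Ano2, Ano3, Ano5 and Best1 were not well above background.

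Of 14 calcium store and transport genes tested, 2 passed higher and 1 lower, with a median of 0.01. Itpr3, a receptor that releases stored calcium and is abundant in epithelia, had signals of 10046 and 12202 in Fgfr1/2cDKO against 6410 and 7332 in control (0.69 ± 0.06, SD, n = 2; limma adjusted p = 0.0204). Stim1, the sensor of an emptied store, was at 0.55 ± 0.10 (adjusted p = 0.0352), and its 3 probes ran from 0.51 to 0.55. The calcium pump of the plasma membrane Atp2b4 fell by 0.51 ± 0.18 on the log2 scale (adjusted p = 0.0491), but its 3 probes ran from -0.51 to 0.05. Of the 12 urothelium markers given beside Ano1, 9 were above 0 on both arrays, as Itpr3 was. The part of urothelium in the Itpr3 value was not tested.

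Of 22 other receptors that act on ureter contraction, none passed higher and 2 lower, with a median of -0.04. The endothelin receptor gene Ednrb had signals of 1989 and 1930 in Fgfr1/2cDKO against 3881 and 3349 in control (-0.88 ± 0.12, SD, n = 2; limma adjusted p = 0.0132), with -0.24 at a second probe. The adrenoceptor gene Adra1b had 9032 and 5795 in Fgfr1/2cDKO against 15925 and 8616 in control (-0.70 ± 0.17, adjusted p = 0.0228). A second Adra1b probe was at -0.30. Its groups at the first probe overlapped across arrays, but the Fgfr1/2cDKO signal was the lower one on each array. The ATP-gated channel P2rx1 had -0.46 ± 0.17 (adjusted p = 0.062). Of 8 neuron markers tested 6 passed lower, and Dbh, the enzyme that makes noradrenaline, was at -0.97 ± 0.01 (adjusted p = 0.00999). Their summed signal was 5414 and 5004 in Fgfr1/2cDKO against 8279 and 8370 in control, with Chrna3 not well above background.

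Of 10 other connexins tested, none passed higher and 2 lower, with a median of -0.05. Gja5 had signals of 351 and 298 in Fgfr1/2cDKO against 732 and 642 in control (-1.08 ± 0.03, SD, n = 2; limma adjusted p = 0.00745), while its second probe stood at -0.06. Gja4 had 524 and 579 in Fgfr1/2cDKO against 1260 and 866 in control (-0.92 ± 0.48, adjusted p = 0.0247). Both are connexins of arterial endothelium. Of 8 endothelium markers 6 passed lower, with a summed signal of 4210 and 4151 in Fgfr1/2cDKO against 6097 and 5596 in control. Esam, an adhesion molecule of endothelial junctions, was at -0.68 ± 0.09 (adjusted p = 0.0218). The part of endothelium in Gja4, Gja5 and Ednrb, and that of neurons in the receptor values, was not tested.

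Of 7 genes of the KIT ligand and interstitial cell list, none passed higher and 1 lower, with a median of -0.04. It was Gucy1b1, a subunit of the nitric oxide receptor, with signals of 3180 and 3048 in Fgfr1/2cDKO against 4757 and 4030 in control (-0.49 ± 0.13, SD, n = 2; limma adjusted p = 0.0486). Etv1, a transcription factor of KIT-positive cells in the mouse gut, had -0.14 ± 0.03 (adjusted p = 0.48), and the kinase Prkg1 had -0.14 ± 0.12 (adjusted p = 0.483).

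Of 12 smooth muscle contractile genes, none passed in either direction in limma's test, and 0 had an unadjusted p under 0.05. Their median was 0.04, and their summed signal was 866404 and 911107 in Fgfr1/2cDKO against 862000 and 889842 in control. Mural cells also express several of these genes. The strongest by p were the intermediate filament gene Des at -0.31 ± 0.37 (SD, n = 2; adjusted p = 0.229), Lmod1 at 0.19 ± 0.10 (adjusted p = 0.34) and the tropomyosin Tpm2 at 0.17 ± 0.06 (adjusted p = 0.373). Under median centring the list's median was -0.29, or -0.15 relative to all genes, so its sign flips with the scaling.

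**Figure D3:**
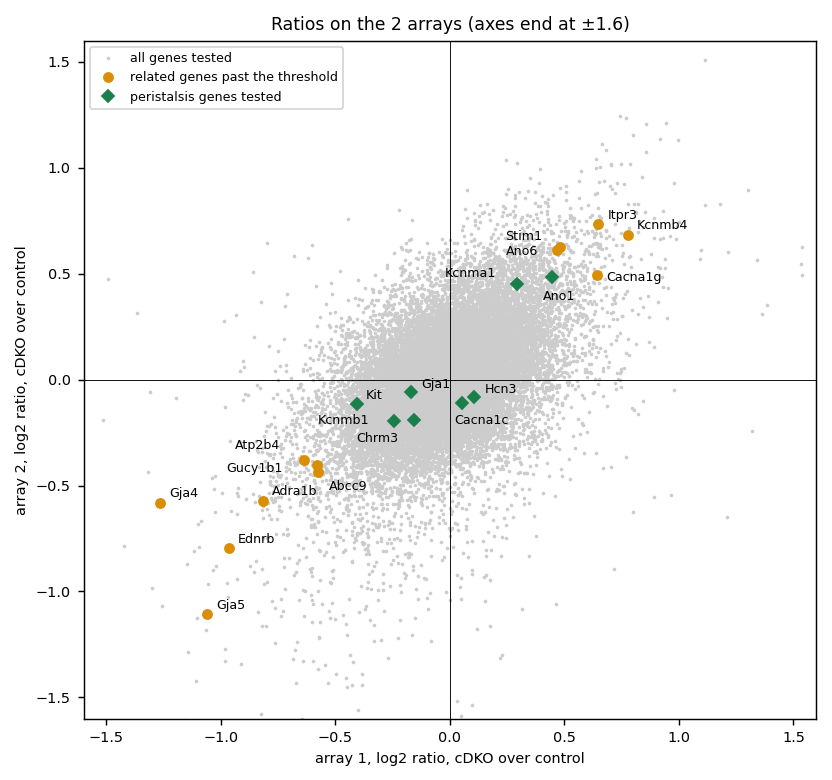
Log2 ratio of Fgfr1/2cDKO over control on array 1 (horizontal) against array 2 (vertical) for all tested genes within the axes (grey), the 8 tested peristalsis genes (green) and the 12 related genes that passed the threshold (orange). Ano1 and Kcnma1 lie upper right, nearer 0 than the 5 orange points of that quadrant, and the other 6 lie near the centre.

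**Figure D4:**
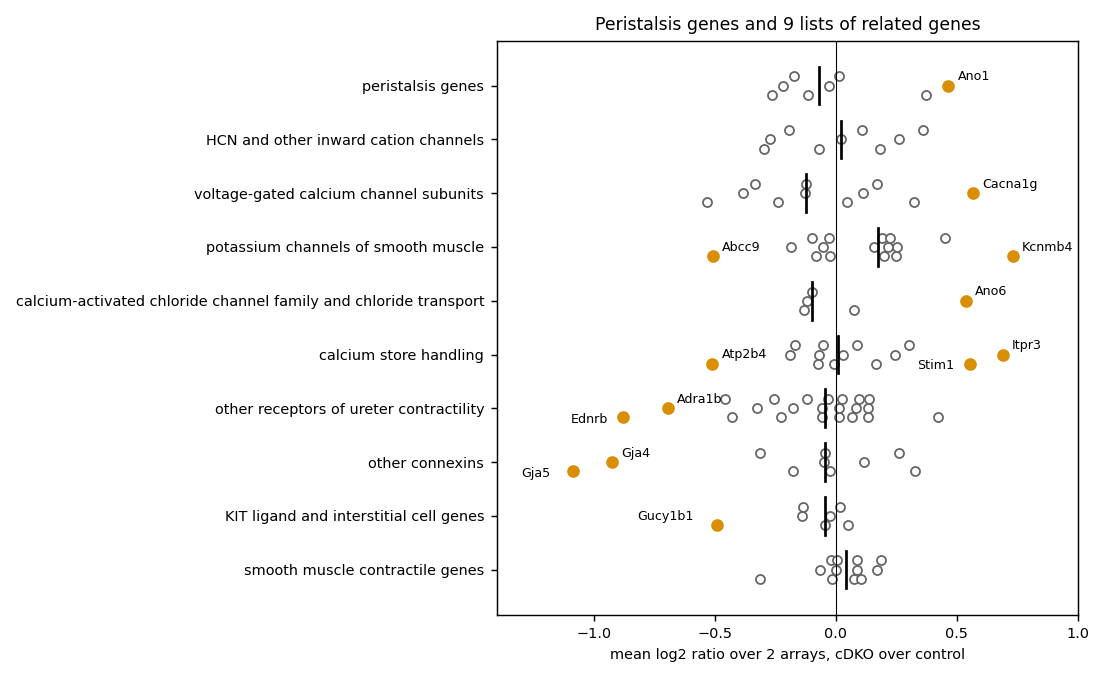
Mean log2 ratio of Fgfr1/2cDKO over control over 2 arrays (horizontal axis) for each tested gene of the peristalsis genes and of the 9 related lists, with a bar at each list's median and filled points for genes past the threshold. The medians run from -0.12 to 0.18, and the filled points lie at both ends.

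Other cell types that a ureter in culture may hold differed too. The macrophage markers had 4 of 8 lower, with a median of -0.48, and Mrc1 was at -0.79 ± 0.30 (SD, n = 2; limma adjusted p = 0.0228). All 6 adipocyte markers tested passed lower, with Retn at -1.65 ± 0.59 (adjusted p = 0.00999). The size differed between the arrays, with a median of -1.15 on array 1 and -2.88 on array 2. Their summed signal was 30507 and 6571 in Fgfr1/2cDKO against 68075 and 56330 in control. Of 8 striated and cardiac muscle markers tested 2 passed lower, with Myh6 at -2.17 ± 0.34 (adjusted p = 0.000827). The 7 fibroblast markers were mixed, with 2 passing lower and 2 above 0 on both arrays, and ran from -0.96 to 0.58 with a median of -0.21. Their summed signal was 442283 and 395404 in Fgfr1/2cDKO against 383274 and 430748 in control, and Dpt was at -0.96 ± 0.22 (adjusted p = 0.0132). Of the targeted genes, Fgfr1 was at -0.33 ± 0.15 (adjusted p = 0.134) and Fgfr2 was higher in Fgfr1/2cDKO at 0.56 ± 0.02 (adjusted p = 0.0309). The labels do not name the floxed exons. The Fgfr1 and Fgfr2 probes therefore do not check the genotype, and every direction above rests on the labels.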

How the data were processed

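RNA of 2 Fgfr1/2cDKO and 2 control samples was read on 2 two-colour Agilent arrays, from 150 ng each. The deposited intensity values were read from the scans by the authors, and per the submitters' processing notes the software was Agilent Feature Extraction, version 10.7.3.1. The software's log10 ratios of processed signals were deposited too, as the file headers name them. The authors also deposited a table of scores, read here as signed folds. Its log2 correlated across probes with the log ratio of red to green (r = 0.84 and r = -0.85), so it runs as Fgfr1/2cDKO over control, but how it was centred is not known. Its columns' medians are 1 and 1.

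From the intensities, limma 3.58.1 (R 4.3.3) corrected background by normexp (offset 50) and normalised by loess within arrays. Control spots had weight 0, and outlier spots were left out (3.17% and 3.65%). The 4 spots of a probe were averaged. A probe was tested if most of its spots were well above background, by the software's flag, on both arrays in at least 1 genotype. The brightest probe stood for a gene, and 22070 genes were tested with lmFit and eBayes, two-sided against 0, at a Benjamini-Hochberg adjusted p of 0.05. Signals per RNA came from Aquantile scaling after loess. The fit had 1 residual and 7.45 prior degrees of freedom, so the number of arrays limits the precision. Median SD between spots of a probe was 0.05 on each array and 0.11 between arrays. The "at least" fold sets the bright genotype against the dim signal, or against the lowest signal flagged as well above background where that is higher. The dye-swapped arrays each pair 1 mutant and 1 control RNA, and the within-array ratio is that pairing, which comes from the labels. Names came from RefSeq by accession (28328 probes) or symbol (3400), and 7701 probes kept the file's name. Fits were tested on simulated data.

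The genes and lists were chosen with earlier results of these data known. Named were every peristalsis gene and probe, the 3 genes with the smallest p and all that passed in each related list, and the 1 with the smallest p in each marker list, plus the targeted genes. Some genes that this rule names are not reported here. Alternatives covered background, normalisation, the authors' table, filters, variance model, channels, probes and threshold.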

Additional observations from a re-analysis of the deposited data

How the results depend on the processing

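The mean ratio of each tested peristalsis gene kept its sign under up to 12 alternatives that use both arrays. From single arrays, Hcn3 was at -0.08 without replicate 1 and Cacna1c at 0.05 without replicate 2, each opposite to its mean. Ano1 passed in 7 of 12 and did not pass in 5, with means from 0.16 to 0.48 and limma adjusted p from 0.0344 to 0.539. Among those 7 is the fit with the array as replicate block, which is the ratio fit in another form. Also among them are the fits with no filter on dim probes, with all 4 channels well above background, with the mean over probes and over all probes. They use the same Ano1 ratios and change only the other genes or probes in the fit, so these passes are not separate evidence. The adjusted p was 0.126 with the software's processed signals, 0.539 with median centring, 0.109 with the authors' table, 0.154 with a trended and robust variance and 0.392 for separate channels with no replicate block. The other 7 tested genes passed under none of these fits. Under those 5 settings 0 peristalsis genes passed. In the fit as reported, 2 (Ano1 and Kcnma1) had an adjusted p under 0.1. Over all genes, 10 passed with processed signals, 1281 with an offset of 10, 0 with median centring (5584 at an unadjusted p under 0.05), 170 with the authors' table, 0 with trended variance (5099 unadjusted), 3 with no replicate block, 1907 at 0.1 and 1471 probes in a fit over all probes, which was chosen after seeing the data. With the array as replicate block, 836 genes passed, which was fixed in advance because that fit equals the ratio fit. The higher share was 46.5% of calls, against 66.7% of the 3 calls with no block and 50% of the 10 with processed signals. The peristalsis genes' median of -0.07 was -0.16 with median centring, -0.029 over the 7 genes well above background in all 4 channels, and -0.09 and -0.05 from single arrays (without replicate 1 and without replicate 2), which allow no test. The causes of these differences were not tested, and some settings also use fewer samples or genes. With 2 arrays, intervals span about as much as the changes read here, and dim probes such as Hcn3, Chrm3, Pln and Chrm2 limit what could be seen.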
